A study of Mus musculus with 24 samples.

Results

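GABA-A receptors are chloride channels built of 5 subunits that open when the transmitter GABA binds, and they carry much of the fast inhibition of the spinal cord. The subunits come from families named by Greek letters. A typical receptor holds alpha, beta and gamma subunits, and the alpha subunit sets much of its place in the cell and its drug response. In the dorsal horn, receptors with the alpha2 and alpha3 subunits are known to dampen pain signals, and those with alpha5 lie largely outside synapses.

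The genes described are 7 of the 55418 rows of the count table, taken by symbol: the alpha subunit genes Gabra2, Gabra3, Gabra4 and Gabra5, the beta subunit genes Gabrb1 and Gabrb2, and the gamma subunit gene Gabrg1. The table holds 12 other GABA-A subunit genes, which serve as the frame for the members. RNA was sequenced from the lumbar cord (L4 to L6) of 24 adult mice, 1 library each, to ask what paclitaxel and the loss of Chrna7 from myeloid cells do there. Chrna7 encodes a nicotinic acetylcholine receptor subunit, and paclitaxel is a taxane cancer drug known to cause painful neuropathy.

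The 8 groups cross genotype (wild-type or myeloid-specific Chrna7 knockout), treatment (vehicle or paclitaxel) and sex, with 3 mice per group. All mice are given as C57BL/6J, 8 to 10 weeks old at the start. Paclitaxel was injected 4 times, every other day, at 1 mg per kg, and vehicle was the solvent of Kolliphor, ethanol and water. Tissue was collected on day 7, counted from the first dose. Which promoter drives the Cre recombinase was not given in the sources used here.

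Libraries held 88812295 to 112158154 counts. The third replicate of wild-type females given paclitaxel resembled sensory ganglion rather than cord: Scn10a, a sodium channel of nociceptors, lay at 772 CPM (a gene's counts scaled to a common library total) against at most 0.728 CPM in the other 23, and Gfap, the filament of astrocytes, at 42.5 against 1015 to 1626 CPM. It is kept apart, so wild-type females given paclitaxel are 2 cords in every value over 23 cords. In those 23 the labelled tissue showed its markers, with Slc32a1, the vesicular GABA transporter, at 80.5 to 115 CPM and Slc17a6, a glutamate transporter, at 246 to 309 CPM. The targeted gene Chrna7 had a log2 fold change of -0.11 between knockout and wild-type cords (SE 0.06, adjusted p = 0.9997, edgeR). Neurons also transcribe it, so whole cord counts do not check the loss from myeloid cells.

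The alpha members differ at a codon that decides their response to classical benzodiazepines such as diazepam. Alpha subunits with a histidine there respond, and those with an arginine do not. The coding stretches around this codon are shown because they place Gabra4 apart from the other alpha members. They were read from the GENCODE M21 transcripts (GRCm38), each lies within 1 exon on the minus strand, and capitals mark the codon.
Gabra2 (chr5:71014490-71014522): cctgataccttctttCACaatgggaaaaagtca
Gabra3 (chrX:72501153-72501185): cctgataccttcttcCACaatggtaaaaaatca
Gabra5 (chr7:57488876-57488908): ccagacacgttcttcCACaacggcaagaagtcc
Gabra4 (chr5:71641137-71641169): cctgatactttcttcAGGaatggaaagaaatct
The capitals read CAC (histidine) in Gabra2, Gabra3 and Gabra5 and AGG (arginine) in Gabra4.

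Of the 7 genes, 4 lie together on chromosome 5 of GRCm38. Gabrg1 spans chr5:70751047-70842617, Gabra2 chr5:70957597-71095849 and Gabra4 chr5:71569749-71658308, all on the minus strand. Gabrb1 (chr5:71658113-72149037, plus strand) starts head to head with Gabra4. The spans of this pair overlap by 196 bases, and they share 46 exon bases. Gabra3 lies on the X chromosome (chrX:72432681-72656848), Gabrb2 on chromosome 11 (chr11:42419757-42629028) and Gabra5 on chromosome 7 (chr7:57407672-57510059). Gabra5 and the targeted Chrna7 are 5588632 bases apart on chromosome 7. Gabra5 shares 148 of its 2974 exon bases with Gm9962, a gene at 2.09 CPM.

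Gabra3 was the most abundant alpha member. Levels of different genes were compared per kilobase of exon, as CPM per kb over the 23 cords. Gabra3 lay at 48.0 ± 2.90 CPM per kb (SD, n = 23). Gabra5 followed at 22.5 ± 0.841 and Gabra2 at 22.4 ± 8.24 CPM per kb. The lowest cord for Gabra3 (40.7) lay above the highest for Gabra2 (34.5) and for Gabra5 (23.9), while Gabra2, at 11.3 to 34.5, ran from below to above the whole range of Gabra5.

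The other members were at lower levels per length. Gabrg1 lay at 8.18 ± 0.688, Gabrb1 at 7.17 ± 0.695, Gabrb2 at 4.23 ± 0.883 and Gabra4 at 3.97 ± 0.327 CPM per kb (n = 23 each). The ranges of Gabrg1 (7.19 to 10.1) and Gabrb1 (5.29 to 8.28) overlapped, as did those of Gabrb2 (2.33 to 5.76) and Gabra4 (3.44 to 4.61). Among subunits outside the 7, Gabrg3, Gabrq, Gabrr2, Gabre and Gabrd lay between 0.307 and 1.84 CPM per kb on average, and the averages of Gabrr1, Gabrr3, Gabrp and Gabra6 were 0.0370 or less.

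**Figure D1:**
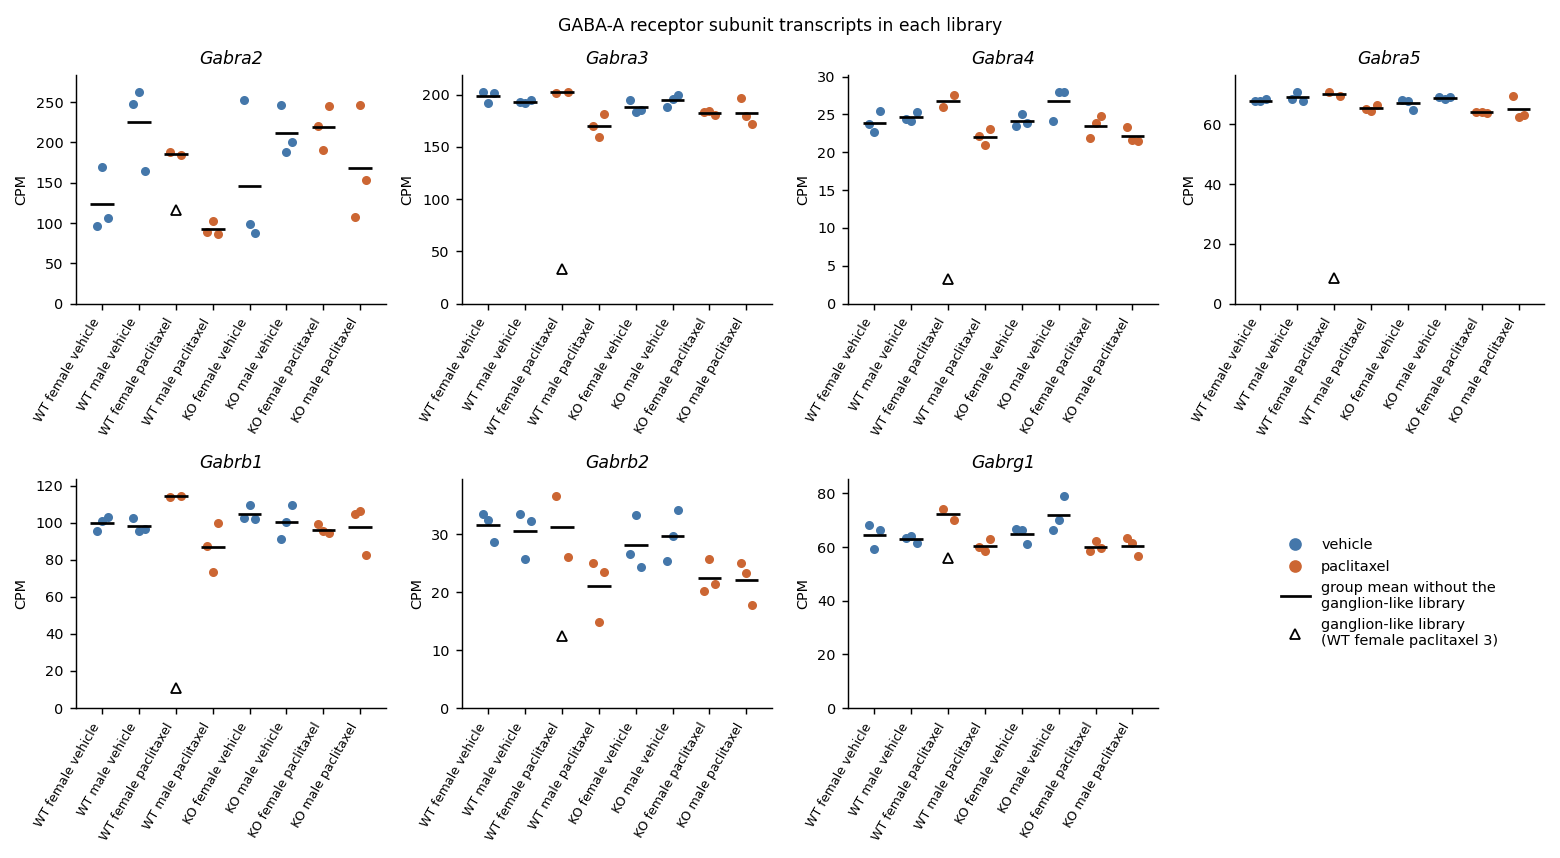
Level of each member in every library, in CPM (y axis, from 0), by group (x axis); each point is 1 library, the line is the mean of the group's cords, and the triangle is the ganglion-like library. Gabra2 spans 86.3 to 263 CPM in the 23 cords with large differences inside groups, while Gabra5 stays within 62.5 to 71.0 CPM.

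Shares among the alpha members follow from these levels. By CPM per kb, Gabra3 made up 49.9 ± 4.18%, Gabra5 23.5 ± 2.22%, Gabra2 22.6 ± 6.55% and Gabra4, the member with the arginine codon, 4.12 ± 0.394% of the 4 alpha members (SD, n = 23). Among the beta members, Gabrb1 held 63.2 ± 3.88% and Gabrb2 36.8 ± 3.88%. Shares depend on the exon length used, since not every exon of a gene need be in its transcripts.

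The alpha shares overlapped between all 4 combinations of genotype and treatment. Gabra2 held 22.4 ± 7.17% in wild-type vehicle cords (n = 6), 18.4 ± 4.80% in wild-type paclitaxel (n = 5), 22.97 ± 7.17% in knockout vehicle (n = 6) and 25.8 ± 6.08% in knockout paclitaxel cords (n = 6). Gabra3 ranged over means of 48.0 to 51.9% in the same groups, Gabra5 over 22.4 to 25.3% and Gabra4 over 3.86 to 4.38%. For Gabra2 the differences between these means are smaller than the range within each group. For Gabra4 that does not hold in every group. Without Gabra2, the ratio of the other alpha members was narrow: Gabra3 then held 64.4 ± 0.879%, from 61.8 to 65.9% over the 23 cords.

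The share of Gabrb2 was lower in the paclitaxel groups of both genotypes. Gabrb2, a beta subunit of the commonest receptors of the brain, held 40.4 ± 2.52% of the beta members in wild-type vehicle cords and 35.4 ± 4.26% in wild-type paclitaxel cords. In knockout cords the share was 37.9 ± 2.41% with vehicle and 33.2 ± 2.14% with paclitaxel. The ranges overlapped in wild-type (36.9 to 43.2% against 30.6 to 41.1%) and in knockout cords (34.2 to 40.4% against 30.8 to 36.9%). No test was run on shares.

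**Figure D2:**
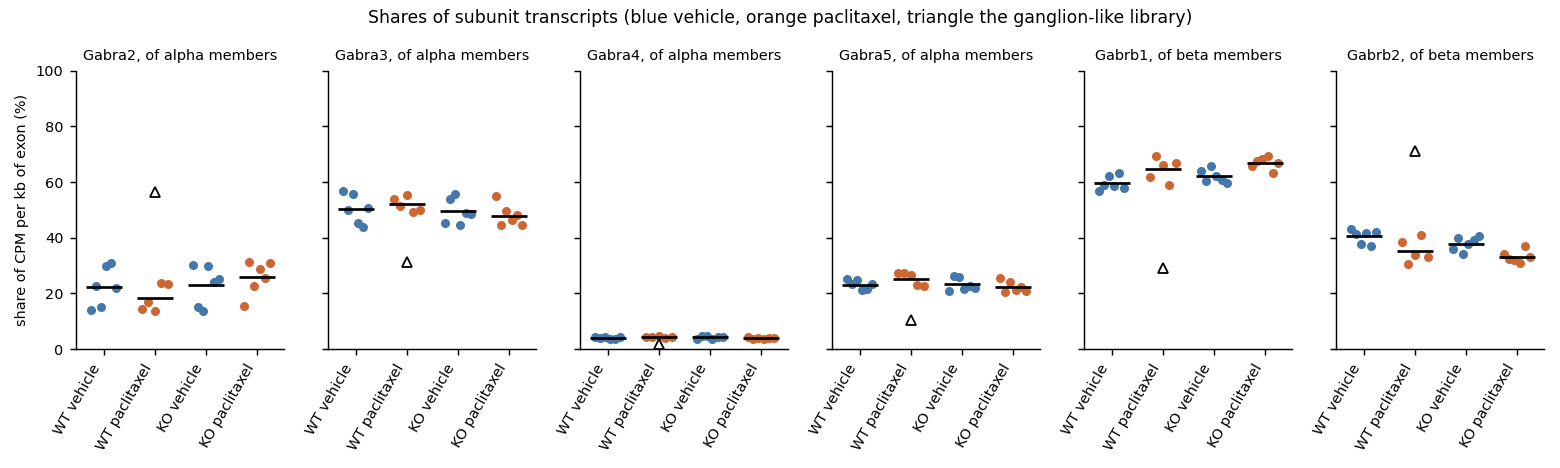
Share of each alpha member among the 4 alpha members, and of each beta member among the 2 beta members, in percent of summed CPM per kb (y axis), by genotype and treatment (x axis); points are cords, lines are means without the ganglion-like library, and triangles are that library. The mean share of Gabrb2 runs from 40.4% in wild-type vehicle to 33.2% in knockout paclitaxel cords, and Gabra2 points spread over 13.5 to 31.4%.

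Gabra2 varied between mice of the same group far more than the other members. It encodes the alpha2 subunit, found at synapses of the superficial dorsal horn. In wild-type females given vehicle it lay at 96.6, 170.1 and 106 CPM, and in wild-type males given vehicle at 248, 263 and 165 CPM. In the 2 wild-type females given paclitaxel it lay at 188 and 184 CPM, and in wild-type males given paclitaxel at 89.2, 102 and 86.3 CPM. The wild-type cords thus held both high and low cords under each treatment, with all 3 males given paclitaxel among the low.

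Knockout cords showed the same breadth. Knockout females given vehicle had 252, 99.1 and 88.0 CPM, and knockout males given vehicle 246, 188 and 201 CPM. Knockout females given paclitaxel had 220.5, 191 and 245 CPM, and knockout males given paclitaxel 108, 246 and 153 CPM. Knockout females given vehicle held both 1 of the highest and 1 of the lowest of all 23 cords.

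The within-group SD of Gabra2 was 0.44 on the log2 scale, the 28th largest of 10755 genes of at least 10 CPM. That of Gabrb2 was 0.25 (155th). Gabrb1 had 0.12, Gabrg1 and Gabra4 0.07 each and Gabra3 0.05. Gabra5, at 0.04, was 10595th, so the alpha members hold genes near both ends of the order. These SDs come from the data that the fits below use.

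The values of Gabra2 fell into separate ranges rather than around 1 level. Sorted over the 23 cords, 8 lay at 86.3 to 108 CPM, then came a gap of 45.3 CPM, the widest, and 15 lay at 153 to 263 CPM. The next widest gap, 24.8 CPM, split the 15 into 9 at 153 to 220.5 and 6 at 245 to 263 CPM. It was little wider than the gap of 19.3 CPM just below it, so a split of the 15 is not clear. The 8 lowest cords were all 3 wild-type males given paclitaxel, 2 of 3 wild-type females given vehicle, 2 of 3 knockout females given vehicle and 1 of 3 knockout males given paclitaxel. The other 4 groups had none. So 5 of the 8 were wild-type and 3 knockout, and 4 of the 8 had vehicle and 4 paclitaxel.

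The low range also followed the numbers in the library names. All 8 low cords were among the libraries numbered 1 to 12, which hold exactly the groups of females given vehicle and males given paclitaxel. Libraries 13 to 24 hold the males given vehicle and the females given paclitaxel. The labels do not say what the numbers stand for. Within libraries 1 to 12, Gabra2 lay at 108 ± 31.1 CPM in wild-type (n = 6) and 158 ± 74.3 CPM in knockout cords (n = 6). Within libraries 13 to 24 it lay at 210 ± 43.3 (n = 5) and 215 ± 26.1 CPM (n = 6). Library number and the combination of sex and treatment cannot be told apart.

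Its neighbours on the chromosome did not share the ranges. In the 8 cords lowest in Gabra2, Gabrg1 lay at 58.6 to 68.3 CPM against 56.6 to 79.1 CPM in the other 15. Gabra4 lay at 20.9 to 25.4 against 21.5 to 28.03 CPM, and Gabrb1 at 73.2 to 110 against 82.7 to 115 CPM. Each of the 3 pairs of ranges overlapped, although Gabrg1 is only 114979 bases from Gabra2. Over deviations from group means in 23 cords, Gabra4 was lower where Gabra2 was higher (Pearson r = -0.48, Spearman rho = -0.59). Inside the sets of 8 and 15 cords, Pearson r of their levels was 0.18 and -0.15.

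Some other genes of chromosome 5 differed between the ranges of Gabra2. Over 15869 genes of at least 1 CPM, the 3 whose levels followed those of Gabra2 most closely, in either direction, were Gm15446, Cdkl2 and Adamts3. All 3 lie on chromosome 5, which holds 6.50% of these genes. Of the 5 genes past a Pearson r of 0.7 in either direction by levels, 3 lie on chromosome 5. By deviations from group means the first 3 were Gm15446, Adamts3 and Kctd18, of which Kctd18 lies on chromosome 1. Past the same r there were 6 genes by deviations, 2 of them on chromosome 5. The genes named here were chosen after their values were seen and carry no test. Their own correlations over all 23 cords are not given because the values of Gabra2 are clustered. Cdkl2 lay at 37.3 to 44.2 CPM in the 8 cords lowest in Gabra2 and at 43.1 to 54.6 CPM in the other 15. These ranges overlapped. Cdkl2 encodes a protein kinase, Adamts3 a secreted protease, and Gm15446 is a predicted gene.

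Gm15446 (chr5:109923400-109943936) lies 38827551 bases beyond Gabra2. It was at 34.0 to 43.8 CPM in the 8 cords lowest in Gabra2 and at 19.9 to 26.1 CPM in the other 15. The 8 cords highest in Gm15446 were the 8 lowest in Gabra2, with no exception among the 23. Inside these sets Pearson r was 0.08 (n = 8) and -0.06 (n = 15). The ganglion-like library, at 116 CPM of Gabra2, had 16.9 CPM of Gm15446, outside both ranges.

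Adamts3 (chr5:89677087-89883334) was lower where Gabra2 was higher inside both sets. Pearson r was -0.69 in the cords lowest in Gabra2 (n = 8) and -0.79 in the others (n = 15). Adamts3 lay at 6.71 to 7.88 CPM in the 6 cords highest in Gabra2. These were among the 8 cords lowest in Adamts3, with knockout female paclitaxel replicate 1 (220.5 CPM of Gabra2) and wild-type male paclitaxel replicate 2 (102 CPM of Gabra2, 7.63 CPM of Adamts3). The other 15 cords had 8.95 to 13.6 CPM. Wild-type male paclitaxel replicate 2 was thus low in both genes.

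Mice of the C57BL/6J strain are known to carry a small intronic deletion in Gabra2 that lowers its transcript, which other C57BL/6 substrains lack. The alleles of these mice were not analysed here, and their part in the ranges was not tested.

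**Figure D3:**
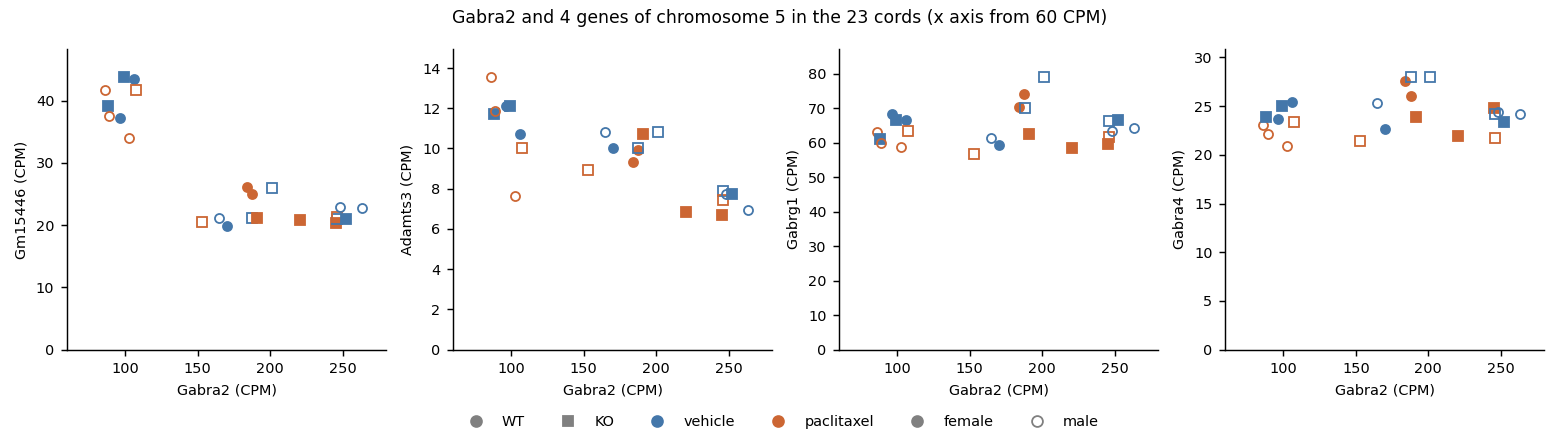
Gabra2 (x axis, CPM, from 60) against Gm15446, Adamts3, Gabrg1 and Gabra4 (y axes, CPM, from 0) in the 23 cords; circles are wild-type and squares knockout, blue vehicle and orange paclitaxel, filled female and open male. Gm15446 lies at 34.0 CPM or more in the 8 cords below 110 CPM of Gabra2 and at 26.1 CPM or less in the other 15, while Gabrg1 and Gabra4 show no such step.

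No member was called between knockout and wild-type cords. Here and below a gene is called at an edgeR adjusted p under 0.05 over the 25372 genes tested, all 7 members included. Over both treatments, 0 of 7 were called by edgeR, DESeq2 or limma voom (0.0118% of all genes by edgeR), and 0 of 7 had an unadjusted p under 0.05 (3.36% of all genes). The median log2 fold change of the members was -0.02, against -0.00 over all genes. Gabra2 ranged from 86.3 to 263 CPM in 11 wild-type cords (median 165) and from 88.0 to 252 CPM in 12 knockout cords (median 196), and differed by 0.31 on the log2 scale (SE 0.19, adjusted p = 0.9997, edgeR). The other 6 had log2 fold changes of -0.16 (Gabrb2) to 0.00 (Gabrb1).

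Within each treatment the genotypes also showed no called member. Under vehicle edgeR, DESeq2 and limma voom called 0 of 7 (0.00788% of all genes by edgeR), with 0 of 7 at an unadjusted p under 0.05 (5.2%). Under paclitaxel the 3 tools called 0 of 7 (0.00394% by edgeR), with 1 of 7 at an unadjusted p under 0.05 (6.18%). That member was Gabrg1, which encodes the gamma1 subunit, known from glia as well as neurons. It lay at 58.5, 62.4, 59.6, 63.3, 61.5 and 56.6 CPM in knockout cords given paclitaxel and at 74.1, 70.3, 59.97, 58.6 and 62.96 CPM in wild-type cords given paclitaxel. The ranges overlapped, with 2 wild-type females above all others (log2 fold change -0.13, SE 0.04, adjusted p = 0.790, edgeR). These comparisons share their samples with those of paclitaxel against vehicle within each genotype.

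Averaged over genotype and sex, the members were lower under paclitaxel, by small amounts that were not called. Over both genotypes all 7 log2 fold changes were negative, with a median of -0.07 against 0.01 over all genes, of which 47.1% were negative. By edgeR, DESeq2 and limma voom 0 of 7 were called (0.0197% of all genes by edgeR), and 5 of 7 had an unadjusted p under 0.05, all lower (10.2% of all genes in either direction, 5.75% lower). That count was 2 without wild-type female vehicle replicate 3 or knockout female paclitaxel replicate 1. It was 3 without wild-type female vehicle replicate 1, wild-type female paclitaxel replicate 2, knockout female vehicle replicate 1 or 2, knockout male vehicle replicate 2 or knockout male paclitaxel replicate 3, and 2 with all 24 libraries. Without knockout female vehicle replicate 1 the value of Gabra2 turned positive (0.05), while the other 6 members stayed negative without each cord in turn. The CPM ranges of the treatments overlapped for each of the 7, as for all other genes tested (0.0% without overlap). In females all 5 paclitaxel cords lay above the vehicle mean of Gabra2, and 3 of 5 above that of Gabra4. For each other member most female paclitaxel cords lay below it. In bulk tissue, fewer cells of a type and less RNA per cell cannot be told apart.

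Gabrb2 had the largest of these differences among the 5. In 12 vehicle cords it ranged from 24.3 to 34.2 CPM and in 11 paclitaxel cords from 14.8 to 36.6 CPM, the highest being wild-type female paclitaxel replicate 1. The log2 fold change was -0.33 (SE 0.10, adjusted p = 0.288, edgeR). In libraries 1 to 12 Gabrb2 lay at 29.8 ± 3.85 CPM with vehicle and 21.6 ± 4.25 CPM with paclitaxel (n = 6 each). In libraries 13 to 24 it lay at 30.1 ± 3.87 (n = 6) and 26.002 ± 6.46 CPM (n = 5), so the paclitaxel mean was lower in both sets. Within each set the vehicle and paclitaxel cords were of opposite sex, so treatment and sex cannot be told apart there.

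The other 4 differences were smaller. Gabra3 had a log2 fold change of -0.07 (adjusted p = 0.303, edgeR), Gabra4 of -0.08 (0.424), Gabrg1 of -0.07 (0.453) and Gabra5 of -0.05 (0.488). Gabra5 lay at 65.0 to 71.0 CPM with vehicle and 62.5 to 70.7 CPM with paclitaxel. Gabrb1 (-0.04) and Gabra2 (-0.12) had an unadjusted p above 0.05. Of the 10 other subunit genes tested, 8 had negative log2 fold changes, 3 were lower at an unadjusted p under 0.05, and 0 were called by edgeR.

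In wild-type cords alone, 1 member was lower at an unadjusted p under 0.05 (7.97% of all genes, 3.97% lower), and 0 of 7 were called by edgeR (0.0% of all genes), DESeq2 or limma voom. It was Gabra3, at 192 to 202 CPM in the 6 vehicle cords (median 193) and at 202, 203, 170.2, 159.5 and 181 CPM in the paclitaxel cords (log2 fold change -0.09, SE 0.04, adjusted p = 0.587, edgeR). The 2 females given paclitaxel were at the top of the vehicle range and the 3 males below it.

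In knockout cords 4 members were lower at an unadjusted p under 0.05 (11.3% of all genes, 5.77% lower), and 0 of 7 were called by edgeR (0.0236% of all genes) or limma voom. The 4 became 2 without knockout female vehicle replicate 2 or knockout male paclitaxel replicate 3, and 1 with all 24 libraries. Gabrg1 had the smallest p, the 40th of all genes. It lay at 66.7, 66.5, 61.1, 66.4, 70.1 and 79.1 CPM in vehicle cords and at 56.6 to 63.3 CPM (median 60.5) in paclitaxel cords. The ranges overlapped through 1 vehicle cord, a female at 61.1 CPM. The log2 fold change was -0.17 (SE 0.04, adjusted p = 0.185, edgeR). DESeq2 called this gene (adjusted p = 0.0322, 0.54% of all genes called), and edgeR without knockout male vehicle replicate 1 called it (0.0292) and Gabra4 (0.0468), with 1.31% of all genes called.

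Gabra4, the alpha subunit of receptors outside synapses in many brain regions, was next. Its vehicle cords held 23.4, 25.02, 23.8, 24.2, 28.01 and 28.03 CPM and its paclitaxel cords 21.9, 23.8, 24.8, 23.4, 21.7 and 21.5 CPM, overlapping ranges (log2 fold change -0.15, SE 0.05, adjusted p = 0.232, edgeR). Gabrb2 lay at 24.3 to 34.2 CPM (median 28.1) with vehicle and 17.8 to 25.7 CPM (median 22.4) with paclitaxel (log2 fold change -0.37, SE 0.14, adjusted p = 0.340, edgeR). Gabra5 lay at 65.0 to 69.2 and 62.5 to 69.4 CPM (log2 fold change -0.07, adjusted p = 0.416, edgeR).

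Markers of other cells were measured in the same knockout cords. The sum of 5 endothelial markers was 185 to 280 CPM (mean 236) with vehicle and 222 to 349 CPM (mean 279) with paclitaxel, and 4 of the 5 were higher at an unadjusted p under 0.05 (median log2 fold change 0.41). Of 6 microglial markers 2, of 7 astrocyte markers 2 and of 6 oligodendrocyte markers 2 were also higher at that p, and 1 astrocyte marker was lower. The 5 skeletal muscle markers had a median log2 fold change of 1.00, with summed levels of 2.18 to 12.2 CPM with vehicle and 2.94 to 36.6 CPM with paclitaxel. At that p 1 of 6 general neuronal, 1 of 5 inhibitory and 1 of 4 excitatory markers were higher, and 1 excitatory marker was lower. Of 5 oligodendrocyte precursor markers 1 was higher and 1 lower. Over all genes 11.3% had such a p. Neuronal sums overlapped, as the endothelial sums did: those of 5 inhibitory markers were 869 to 1065 CPM with vehicle and 924 to 1007 CPM with paclitaxel, and those of 4 excitatory markers 308 to 336 and 293 to 325 CPM. EdgeR called 0 of these markers. None of these markers was at 0 in all cords. The part of cell composition in the members' values was not tested.

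Whether the paclitaxel difference depended on genotype was tested by the interaction, the difference in knockout minus that in wild-type cords. EdgeR, DESeq2 and limma voom called 0 of 7 (0.0% of all genes by edgeR), and 2 of 7 had an unadjusted p under 0.05, both negative by edgeR (8.41%, 3.9% negative). By DESeq2 and limma voom it was 1 of 7, and without 1 cord in turn 1 to 3. They were Gabrg1 (-0.21, SE 0.06, adjusted p = 0.496, edgeR) and Gabra4 (-0.14, SE 0.07, adjusted p = 0.592, edgeR). The lower level of Gabrg1 with paclitaxel in knockout cords is therefore not shown to differ from wild-type, where its log2 fold change was 0.04.

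**Figure D4:**
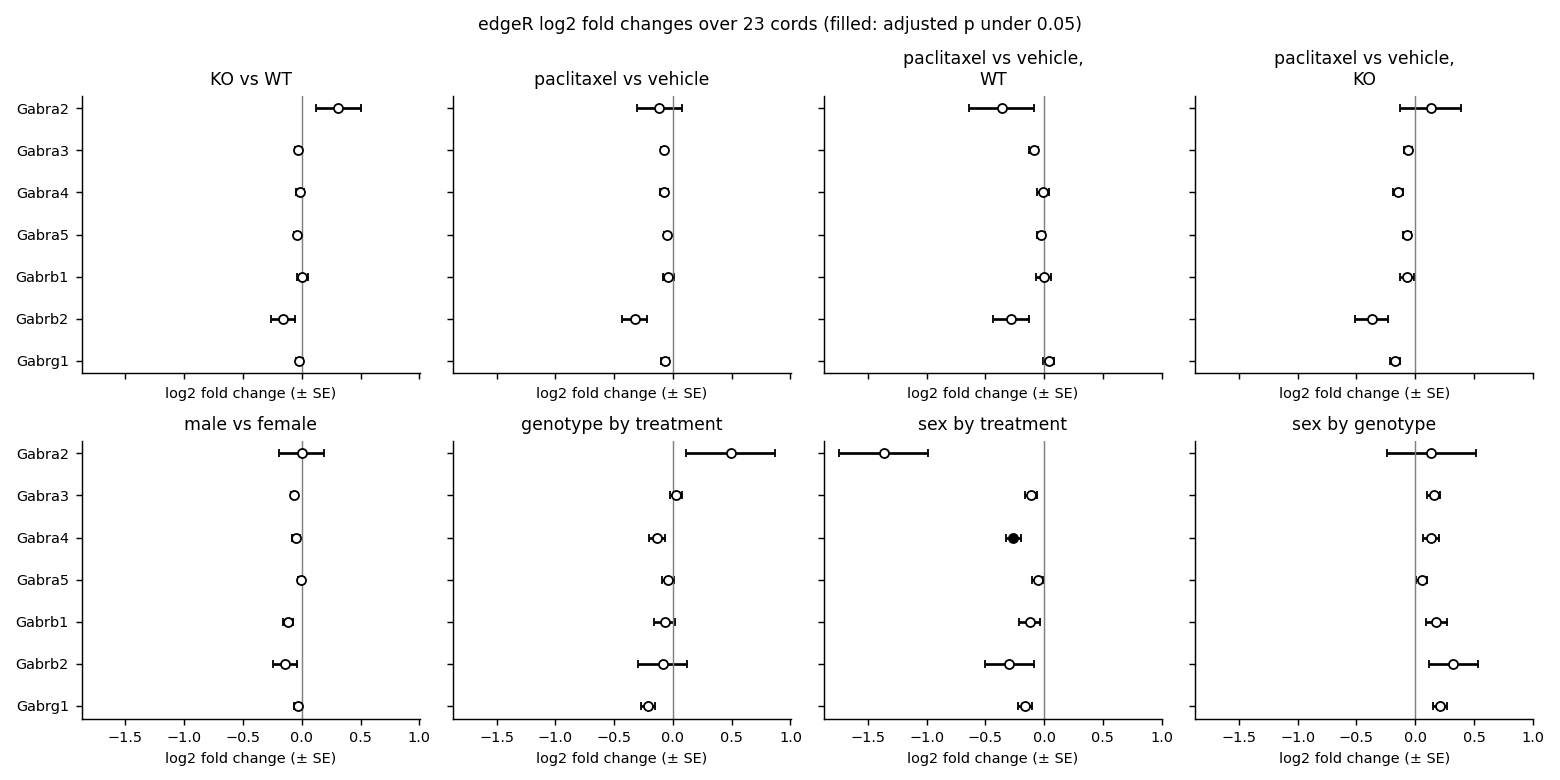
Log2 fold change of each member (x axis, with bars of 1 SE) by edgeR over 23 cords for 8 comparisons; the interactions are differences between 2 fold changes, and a filled point is called. Only Gabra4 in the interaction of sex and treatment is filled (-0.26), and Gabra2 has the widest bars in each panel.

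Males and females differed little in the members. EdgeR, DESeq2 and limma voom called 0 of 7 (0.918% of all genes by edgeR), and 2 of 7 were lower in males at an unadjusted p under 0.05 (13.2% of all genes in either direction, 6.67% lower). Gabrb1 had a log2 fold change of -0.12 (SE 0.04, adjusted p = 0.226, edgeR). Gabra3, on the X chromosome, had -0.06 (SE 0.03, adjusted p = 0.270, edgeR). For the difference of the knockout effect between males and females, the 3 tools called 0 of 7 (0.00394% by edgeR), and 2 of 7 had an unadjusted p under 0.05 (12.6%, 5.79% positive), both positive: Gabrg1 at 0.21 (SE 0.06, adjusted p = 0.183, edgeR) and Gabra3 at 0.16 (SE 0.05, adjusted p = 0.215, edgeR).

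The paclitaxel difference of males minus that of females was negative for all 7 members (50.7% of all genes), or 4 of 7 with all 24 libraries, and Gabra4 was called. It was 1 of 7, where 4.96% of all genes were called, and 4 of 7 had an unadjusted p under 0.05, all negative (20.3% of all genes, 9.87% negative). The 4 became 2 without wild-type female paclitaxel replicate 1 and 1 with all 24 libraries. In females Gabra4 lay at 23.7, 22.7, 25.4, 23.4, 25.02 and 23.8 CPM with vehicle and at 26.04, 27.6, 21.9, 23.8 and 24.8 CPM with paclitaxel. In males it lay at 24.4, 24.2, 25.3, 24.2, 28.01 and 28.03 CPM with vehicle and at 22.1, 20.9, 23.1, 23.4, 21.7 and 21.5 CPM with paclitaxel. In males the 2 sets did not overlap, which held for Gabra4 and Gabrb2 among the 7 and for 1.4% of all genes in this direction. In females they overlapped. The difference of the 2 log2 fold changes was -0.26 (SE 0.07, adjusted p = 0.0262, edgeR).

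Gabra2 had the largest value of this kind, -1.36 (SE 0.38, adjusted p = 0.0511, edgeR). It was called by DESeq2 (adjusted p = 0.00936, 9.36% of all genes called) and limma voom (0.0337, 4.74%). The comparison is the one in which library numbers 1 to 12 stand against 13 to 24, so the 8 low cords described above all enter it on 1 side. Gabra4 lay at 20.9 to 25.4 CPM in libraries 1 to 12 and at 21.9 to 28.03 CPM in libraries 13 to 24. DESeq2 (adjusted p = 0.00570) and limma voom (0.0301) also called Gabra4. By edgeR the call was lost with all 24 libraries (-0.01), and in fits without replicate 1 or 2 of wild-type females under either treatment, knockout female paclitaxel replicate 2 or 3, knockout male vehicle replicate 2 or 3, or knockout male paclitaxel replicate 3. The adjusted p in those 9 fits ran from 0.0515 to 0.0733. Gabra2 was called by edgeR in 2 of the 23 fits, without knockout female vehicle replicate 1 or without knockout male paclitaxel replicate 2 (lowest adjusted p 0.0240).

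Genes around the receptor were examined as 7 further lists, described by counts over 23 cords. In the paclitaxel comparison over both genotypes, 0 genes of these lists were called by edgeR, and 11 of 59 tested had an unadjusted p under 0.05 (10.2% of all genes). Of 5 glycine receptor genes, all 5 had negative log2 fold changes (median -0.05 against 0.01 for all genes). Glra1, the alpha1 subunit of adult glycine receptors, had the largest (-0.48, SE 0.13, adjusted p = 0.214, edgeR). Of 18 genes of receptor clustering and trafficking 10 were lower (median -0.02). Of 8 genes of GABA synthesis, release, uptake and breakdown, 6 were higher (median 0.03), among them Slc32a1 (0.08, adjusted p = 0.454, edgeR). Of the chloride gradient list 4 of 7 were lower (median -0.05), led by the kinase gene Wnk1 (-0.11, adjusted p = 0.184, edgeR). The members and the other subunits each had a median of -0.07.

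In the interaction of sex and treatment the GABA handling genes had values of the opposite sign from the receptor members. All 8 had positive values (median 0.24 against -0.01 for all genes), and 4 of 8 were called by edgeR (4.96% of all genes). They include the GABA transporter Slc6a11 (0.27, adjusted p = 0.0278, edgeR), the vesicular transporter Slc32a1 (0.31, adjusted p = 0.0212, edgeR) and Gad1, an enzyme that makes GABA (0.40, adjusted p = 0.0489, edgeR). Of the clustering list 3 of 18 were called, against the same 4.96%, all positive: Hap1 (0.29), Clptm1 (0.25) and the synaptic adhesion gene Nlgn2 (0.20). Slc12a5, the chloride exporter KCC2, was called at 0.25 and the chloride channel Clcn2 at -0.26. The glycine receptor, GABA-B receptor, neurosteroid and other subunit lists had 0 called by edgeR, with 0 of 5, 2 of 5, 1 of 6 and 1 of 10 tested genes at an unadjusted p under 0.05. As for the members, library number and this comparison cannot be told apart.

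Markers of several cell types were also called in this interaction. All 5 inhibitory neuron markers had positive values (median 0.31), and 3 were called by edgeR: Pax2 (0.41), Slc32a1 and Gad1, of which the last 2 are also GABA handling genes. Of 6 general neuronal markers 2 were called, as were 2 of 6 microglial, 2 of 6 oligodendrocyte, 1 of 7 astrocyte, 1 of 4 excitatory neuron and 1 of 5 skeletal muscle markers. The median was 0.42 for 5 endothelial, 0.47 for 5 Schwann cell and 3.04 for 5 skeletal muscle markers. The part of cell composition in the values of the members and the GABA handling genes was not tested.

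In knockout against wild-type cords and in the interaction of genotype and treatment, edgeR called 0 genes in all 7 lists, with 2 and 1 list genes at an unadjusted p under 0.05. In males against females it called 1, the kinesin gene Kif5a, lower in males by 0.17 on the log2 scale (adjusted p = 0.00300, edgeR).

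Members other than Gabra2 varied together from cord to cord inside groups. Over deviations from group means in 23 cords, all 15 pairs without Gabra2 correlated positively, with Pearson r of 0.15 to 0.71 (median 0.50). By Spearman rho 14 of the 15 were positive (-0.04 to 0.67), the exception being Gabra5 with Gabrb1. The 6 pairs with Gabra2 all had a negative Pearson r. All pairs share libraries and their scaling, so these values describe the 23 cords and carry no p. The share of positive pairs among all genes is not given here, so the pattern is not shown to be particular to the members. The genes most like each member on this measure were Serinc1 for Gabra3 (r = 0.93), Cyld for Gabra4 (0.89), Hyls1 for Gabra5 (0.80), Csrnp3 for Gabrb1 (0.92), Klf12 for Gabrb2 (0.93) and 2010315B03Rik for Gabrg1 (0.95), each over 23 cords.

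Several members, the beta members most closely, also moved with the balance of long and short transcripts, a measure of the library as a whole. It is the mean log2 deviation of genes with at least 7602 exon bases minus that of genes with at most 3257. Gabrb2 correlated with it at Pearson r = 0.79 and Spearman rho = 0.67, and Gabrb1 at 0.76 and 0.54 (n = 23). Without the 2 cords farthest from the median of the balance, r was 0.67 for Gabrb2 and 0.60 for Gabrb1. Gabra3 had r = 0.72, and 0.54 without those 2 cords. Over all 23 cords r was 0.55 for Gabra4, 0.45 for Gabrg1, 0.30 for Gabra5 and 0.15 for Gabra2. By exon bases Gabrb1, Gabrg1 and Gabra2 are themselves among the long genes of the measure, and Gabra5 among the short. The share of all genes with such an r is not given here.

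Paclitaxel cords had a lower balance, at -0.03 ± 0.09 (SD, n = 11) against 0.03 ± 0.04 in vehicle cords (n = 12), a difference of -0.06. Without the lowest cord the paclitaxel mean was -0.01 (n = 10) and the difference -0.04. That cord, wild-type male paclitaxel replicate 2 at -0.27, also had the lowest Gabrb2 (14.8 CPM) and the lowest Gabrb1 (73.2 CPM). The part of this balance in the paclitaxel values of Gabrb2 was not tested. Without that cord, as without each of the other 22, the log2 fold change of Gabrb2 with paclitaxel stayed within -0.40 to -0.27.

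**Figure D5:**
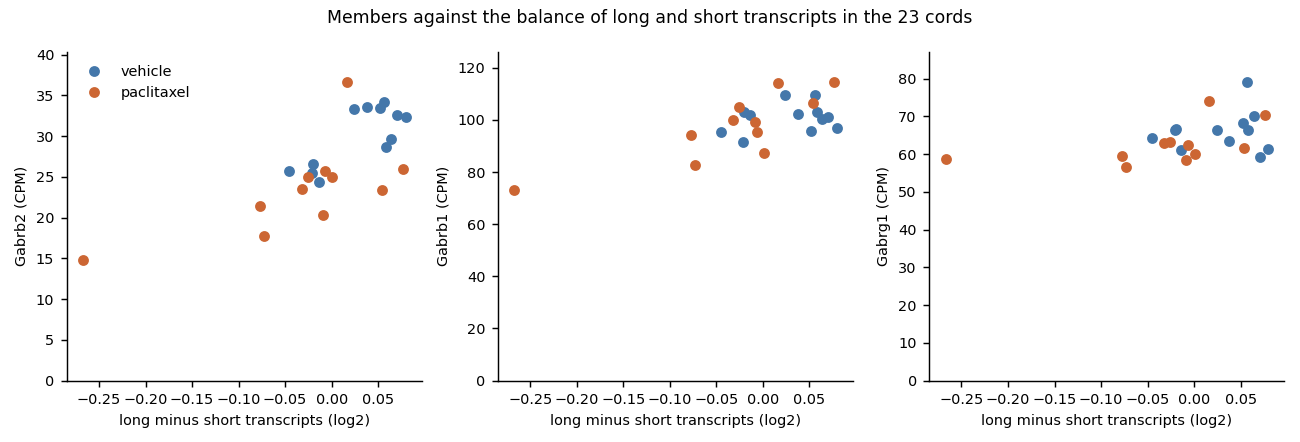
Gabrb2, Gabrb1 and Gabrg1 (y axes, CPM, from 0) against the balance of long minus short transcripts (x axis, log2) in the 23 cords; blue is vehicle and orange paclitaxel. The cord at -0.27 has the lowest Gabrb2 and Gabrb1, and Gabrb2 is higher where the balance is higher (r = 0.79).

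In the ganglion-like library the members parted. As a share of the median of the 23 cords, Gabrg1 stood at 88.3%, Gabra2 at 63.2% and Gabrb2 at 48.3%. Gabra3 stood at 17.2%, Gabra4 at 13.8%, Gabra5 at 12.5% and Gabrb1 at 10.97%. All but Gabra2 lay below the lowest of the 23 cords. This is 1 library without a replicate of its kind, so no test was made, and with it the median log2 fold change of the members with paclitaxel was -0.18 in place of -0.07.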

How the data were processed

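The deposited table holds whole-number counts per gene symbol, made by the authors without normalization. STAR was the aligner and featureCounts 1.6.2 the counter, per the submitters' processing notes. The release of STAR was not given in the sources used here. Exons of Ensembl GRCm38 release 96 were counted per gene name, ignoring strand, per the file headers. The command names no option for read pairs. Odd values made up 34.4 to 37.3% of those from 1 to 20 in each library, so both mates were probably counted, and the totals then exceed the number of fragments.

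Counts of the 23 cords were fitted with edgeR 4.0.16 (R 4.3.3): filterByExpr over the 8 groups, TMM factors, robust quasi-likelihood tests on group means and Benjamini-Hochberg adjustment over 25372 genes. The ganglion-like library was left out with its profile known, and all 24 libraries are an alternative. Others were DESeq2 1.42.0, limma voom (limma 3.58.1), DESeq2 size factors, no count filter, the replicate number as a block, only the groups compared, and leaving out each cord. CPM printed for cords rests on library totals, and CPM per kb on the table's exon length, per the file headers. Likeness is the Pearson correlation of log2 CPM deviations from group means over genes of at least 1 CPM, and the text gives the first of the 3 genes taken per member, except for Gabra2. Other genes named are other subunits, overlapping or neighbouring genes, Chrna7, and list genes that were called or had the smallest unadjusted p. Some genes under this rule are not reported here. Replicates are separate mice, and their number limits precision. Members, lists and tests were chosen with earlier results of these data known.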

Additional observations from a re-analysis of the deposited data

Results flagged for a closer look

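Gabra5, the member with the smallest spread, had 1 cord far from the others in 3 of the 4 combinations of genotype and treatment. In wild-type vehicle cords, male replicate 2 lay at 71.0 CPM (70.999) above the others at 67.7 to 68.5 CPM. In knockout vehicle cords, female replicate 3 lay at 65.0 CPM (64.961) below the others at 67.9 to 69.2 CPM. In knockout paclitaxel cords, male replicate 1 lay at 69.4 CPM (69.437) above the others at 62.5 to 64.3 CPM. The 28 combinations of member and group were examined, and chance sets a sample apart in this way in about 1 of 20 groups.

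The paclitaxel difference of Gabra4 was lower in males than in females by 0.26 on the log2 scale (-0.261, edgeR adjusted p = 0.0262). The test was of the interaction itself, which library number shares.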

How the results depend on the processing

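The 21 log2 fold changes of members with an unadjusted p under 0.05 in the main fit were taken again under 30 other settings. Of the 615 values, 587 kept their direction and side of the threshold, 10 lost and 13 gained the call, and 5 changed direction. Values with a larger p are not covered and were less stable. In knockout against wild-type cords 2 members were higher and 5 lower, but 6 higher and 1 lower with all 24 libraries. The 5 changes of direction among the 615 arose with all 24 libraries: Gabra4 in genotype by treatment (0.11), Gabra3 in males against females (0.0521), sex by treatment (0.12) and sex by genotype (-0.082), and Gabrb1 in males against females (0.0093). The ganglion-like library is 1 of 3 in its group there. Mean levels of members stayed within 1 SD in all 175 other values.

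Members called rose without the filter on low counts to 2 in knockout against wild-type, paclitaxel against vehicle, the same in wild-type and in knockout cords, and males against females, to 1 in knockout against wild-type under paclitaxel, genotype by treatment and sex by genotype, and to 3 in sex by treatment. Calls over all genes were also more frequent there than with the filter: of 41809 genes 5.22% were called in sex by treatment and 0.237 to 1.94% in the others. In sex by treatment 2 were called by DESeq2 (9.36% of all genes), by limma voom (4.74%) and with the replicate block (7.45%), and 0 with all 24 libraries (0.0%). In knockout cords given paclitaxel DESeq2 called 1. Leaving out 1 cord gave 0 to 2 called in sex by treatment and 0 to 2 in paclitaxel against vehicle in knockout cords. Members at an unadjusted p under 0.05 numbered 0 to 4 in knockout against wild-type under paclitaxel (4 when replicate 1 of the knockout males given paclitaxel was left out, 0 when replicate 1 of the wild-type females given paclitaxel was), 0 to 2 in paclitaxel against vehicle in wild-type cords and 2 to 4 in sex by genotype.

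With the replicate block, Gabra2 in sex by treatment had -1.34 (edgeR adjusted p = 0.0491) and Gabra4 -0.27 (0.0136). Whether the replicate numbers mark pairs is not settled. Deviations of same-numbered cords of different groups correlated above 0.1 in 22 of 77 pairs (median 0.01). For cords with different numbers it was 23 of 154 pairs (median -0.01). Of the 23 cords, 13 went best with their own number.

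Shares without division by exon length were 36.8% for Gabra2, 42.6% for Gabra3, 5.45% for Gabra4, 15.2% for Gabra5, 78.8% for Gabrb1 and 21.2% for Gabrb2. Among all alpha or beta genes, an alternative chosen after seeing the data, they were 45.0% for Gabra3, 3.72% for Gabra4, 21.2% for Gabra5, 18.0% for Gabrb1 and 10.5% for Gabrb2. Each member had at least 1390 counts in each of the 23 cords, and the number of mice limits precision.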
